A study of Mus musculus with 6 samples.

Results

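The 7 messenger RNAs examined here, mt-Nd1, mt-Nd2, mt-Nd3, mt-Nd4l, mt-Nd4, mt-Nd5 and mt-Nd6, are all those of respiratory complex I that the mitochondrial genome encodes, 7 of its 13 messenger RNAs. These 7 genes are called the members. Member sites are the JARID2 contact sites that overlapped any of these genes on its own strand by at least 1 base. There were 125 such sites of 23380 in untreated cells and 83 of 5348 after retinoic acid. The cells were E14, a line of mouse embryonic stem cells grown in serum with LIF. Of 6 libraries, 3 came from untreated cells and 3 from cells differentiated with 2 µM retinoic acid for 24 h. In both groups the cells had taken up 500 µM 4-thiouridine for 2 h and were irradiated at 312 nm before immunoprecipitation of JARID2 with an in-house antibody (PAR-CLIP). No input, control immunoprecipitation or JARID2-deficient cells were analysed here, so no background level stands beside these sites. The authors deposited 1 list of sites per condition for its 3 libraries together, so no value has a spread between libraries. The 95% intervals of shares, densities and odds ratios are exact and allow for counting error alone.

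Complex I takes electrons from NADH, passes them to ubiquinone and pumps protons across the inner mitochondrial membrane. Most of its subunits are nuclear-encoded, while the mitochondrial ND proteins form the core of its membrane arm. JARID2 is a chromatin protein, a partner of the Polycomb complex PRC2, that is known to bind RNA. The mitochondrial genome is transcribed from both strands as long precursors, and transfer RNAs between the genes mark where these are cut. mt-Nd6 lies on one strand, and the rest of the ND genes lie on the other. mt-Nd4l and mt-Nd4 overlap and share 1 messenger RNA. 4-thiouridine crosslinks at U, written here as T.

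The highest-scored site of each gene in each list is printed, to show its length as deposited and how far the lists coincided at it. The score is the authors' own whole number per site, and what it counts is not given in these sources. Sequences run 5′ to 3′ on the RNA strand, positions count from 1 on the mitochondrial chromosome of mm9, and letters come from GENCODE M21 transcripts (build GRCm38), taken to hold the same mitochondrial record. The sites of mt-Nd6 lie on the minus strand and the others on the plus strand. Capitals mark bases that also lay in a site of the other list. The sites of mt-Nd1 and mt-Nd2 below begin in or near the 5′ part of the gene, and that of mt-Nd1 starts in the transfer RNA before it.
mt-Nd1, untreated, chrM:2746-2850: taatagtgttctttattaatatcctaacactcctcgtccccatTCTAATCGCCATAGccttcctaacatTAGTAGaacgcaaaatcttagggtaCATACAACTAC
mt-Nd2, untreated, chrM:4058-4104: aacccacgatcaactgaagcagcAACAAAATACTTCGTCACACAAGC
mt-Nd3, untreated, chrM:9585-9599: CCTACAAGCTCTgca
mt-Nd4l, untreated, chrM:10113-10126: aAAAGTTTCAAACa
mt-Nd4, untreated, chrM:11091-11115: ttcataggagcAACAATACTAATAA
mt-Nd5, untreated, chrM:12189-12205: atatctttccTACTAAT
mt-Nd6, untreated, chrM:13720-13731: gtaattaatctt
In the treated list the highest-scored site lay elsewhere in each of the 7 genes, and that of mt-Nd3 began in the transfer RNA gene mt-Tg.
mt-Nd1, retinoic acid, chrM:3544-3558: tacTATCATCAACat
mt-Nd2, retinoic acid, chrM:4419-4431: GACTTAACCAAAC
mt-Nd3, retinoic acid, chrM:9441-9486: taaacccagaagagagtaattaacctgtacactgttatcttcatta
mt-Nd4l, retinoic acid, chrM:10135-10143: acagattac
mt-Nd4, retinoic acid, chrM:11156-11192: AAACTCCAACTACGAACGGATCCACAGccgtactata
mt-Nd5, retinoic acid, chrM:12574-12576: TTT
mt-Nd6, retinoic acid, chrM:14030-14041: ATTATTTTtggt
All 208 sites held a T on the RNA strand. Site sequences were close to their genes in composition, with 29.2% T in untreated and 31.8% T in treated sites against 30.3% in the 7 genes.

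Every member held sites in both lists, and the treated list was shorter on 6 of the 7. mt-Nd5, a proton-pumping subunit, had the most sites untreated, 40 against 21 treated. mt-Nd4, another pumping subunit, had 26 and 23, and mt-Nd1, which lies next to the ubiquinone-binding site, had 24 and 17. mt-Nd2, also an antiporter-like pumping subunit, had 15 and 8. The small subunits mt-Nd4l, mt-Nd6 and mt-Nd3 had 7 and 6, 9 and 4, and 4 and 4. Over the 7 genes the untreated list had 1.51 times as many sites, against 1.14 times on the 6 other mitochondrial messenger RNAs and 4.37 times over all sites. The complex I share of mitochondrial messenger RNA sites was 52.1% untreated (45.6 to 58.6) and 45.1% treated (37.8 to 52.6), while the 7 genes make up 55.8% of messenger RNA length. The intervals of the lists overlapped.

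Per length, the genes fell in a different order from that by number. Untreated density was highest on mt-Nd1, at 25.1 sites per kb (16.1 to 37.3), followed by mt-Nd4l at 23.6, mt-Nd5 at 21.9, mt-Nd4 at 18.9, mt-Nd6 at 17.3, mt-Nd2 at 14.5 and mt-Nd3 at 11.5 (3.13 to 29.4). Each gene's interval overlapped those of its neighbours in this order, so the order itself is not resolved. Treated density was highest on mt-Nd4l, at 20.2 sites per kb, then mt-Nd1 at 17.8, mt-Nd4 at 16.7, mt-Nd5 and mt-Nd3 at 11.5 each, and mt-Nd2 and mt-Nd6 at 7.71 each. Pooled over the 7 genes, density was 19.7 (16.4 to 23.4) untreated and 13.1 (10.4 to 16.2) treated. These 2 intervals lay narrowly apart, but they allow for counting error alone. The 6 other messenger RNAs had 23.0 (19.0 to 27.6) and 20.2 (16.5 to 24.6), and these intervals overlapped. The difference between the groups was not tested. The densities most like those of complex I over the 2 lists were on mt-Co2, a subunit of cytochrome c oxidase, with 17.5 sites per kb in each list, and mt-Atp6, a subunit of ATP synthase, with 19.1 in each. Their absolute log2 ratios to complex I summed to 0.59 for both genes. Any gene with equal densities in the lists, lying between the 2 complex I values, has that sum. These 2 genes are thus near in level only, and neither had the lower treated density of complex I. mt-Nd6 is the most T-rich member, with 43.7% T against 27.4% to 32.8% in the others. Per 1000 T it had 39.7 sites untreated and 17.6 treated, against 64.9 and 43.1 for the 7 genes together. Other members were also under the pooled values, with 35.1 in each list on mt-Nd3 and 52.8 and 28.2 on mt-Nd2. The mt-Nd6 values rest on 9 untreated and 4 treated sites.

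**Figure D1:**
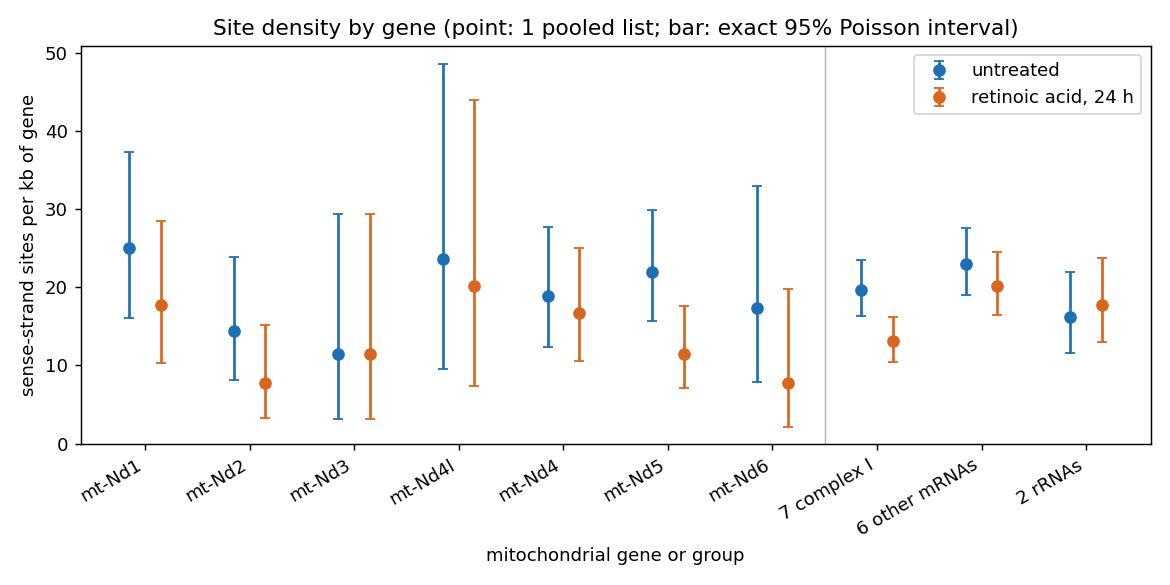
Sense-strand sites per kb (vertical axis) for each complex I gene and for 3 pooled groups (horizontal axis) in the untreated and retinoic acid lists; points are 1 pooled list and bars exact 95% Poisson intervals. The pooled complex I densities are 19.7 and 13.1 sites per kb, and for each gene the intervals of the 2 lists overlap, least on mt-Nd5 (15.7 to 29.9 untreated, 7.13 to 17.6 treated).

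The gene-by-gene comparison of the lists called no gene, so a change in share was not detectable for any member tested. Each mitochondrial gene with at least 10 sites was tested with Fisher's exact test (two-sided), its sites against the rest of the 396 untreated and 275 treated mitochondrial sites. Of 13 genes tested, 0 passed after Benjamini-Hochberg adjustment (a background of 0%) and 0 had an unadjusted p under 0.05, and 6 of the 13 are members. mt-Nd5 had an odds ratio, treated over untreated, of 0.736 (0.402 to 1.31; Fisher exact adjusted p = 0.830), and mt-Nd4 had 1.30 (0.691 to 2.43; Fisher exact adjusted p = 0.830). When only sites scored 100 or higher were counted, the ratio of mt-Nd5 was 0.417 (Fisher exact adjusted p = 0.699). The ratio was 1.02 (0.504 to 2.03) for mt-Nd1, 0.761 (0.275 to 1.95) for mt-Nd2, 1.24 (0.340 to 4.36) for mt-Nd4l and 0.635 (0.142 to 2.30) for mt-Nd6. These intervals leave room for changes of more than 1.5 times in at least one direction for each member, and mt-Nd3, with 8 sites, was not tested. Set against all sites of the list instead, the odds ratio was above 1 for all 6 members tested. It passed the adjusted threshold for 4 of them, mt-Nd1, mt-Nd4l, mt-Nd4 and mt-Nd5, and for 84.6% of the 13 genes, but not for mt-Nd2 (2.33; Fisher exact adjusted p = 0.0633) or mt-Nd6 (1.94; Fisher exact adjusted p = 0.280). Sites of 1 transcript are not independent and each list is 1 pool, so the test compares the 2 lists and not the conditions.

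Scores on complex I messenger RNAs were low for mitochondrial RNA. The median was 120 untreated (range 15 to 685) and 92 treated (8 to 954), against 267 and 167 on the other messenger RNAs and 1908 and 928 on the ribosomal RNAs. No member site reached 1000 in either list, while 8 untreated and 3 treated sites of the other messenger RNAs did. The 7 genes held 28.7% of the summed messenger RNA score untreated and 28.0% treated. By gene, the untreated median ran from 64 on mt-Nd2 to 147 on mt-Nd1, and the treated median from 67 on mt-Nd5 to 136 on mt-Nd6. Summed scores on mt-Nd5 were 4908 untreated and 1827 treated, and on mt-Nd1 they were 4830 and 2322. On mt-Nd4 they were 3691 and 2788, and on mt-Nd4l they were nearly level, at 667 and 691. On mt-Nd3 the sum was higher treated, 1147 against 508, and 954 of the treated sum came from 1 site. That site ran from the transfer RNA gene mt-Tg over the start of mt-Nd3 (chrM:9441-9486), it had no untreated counterpart, and it was the highest-scored member site of either list.

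The sites recurred in part, and never base for base. Of the 83 treated sites, 59 (71.1%, 60.1 to 80.5) shared 1 base or more with an untreated site of that strand, against 27.3% of all treated sites. Of the 125 untreated sites, 58 (46.4%, 37.4 to 55.5) overlapped a treated one, against 6.28% of all untreated sites. The share of the other mitochondrial messenger RNAs was 72.3% treated and 61.7% untreated. Untreated sites covered 30.01% of the length of the 7 genes and treated sites 19.7%, and the part of this density in the overlap was not tested. Of the bases that treated sites covered, 45.0% also lay in an untreated site. No site had the same start and end in both lists, and 30 pairs shared at least 50% of both sites. The sites paired one to one, 55 pairs in all, shared a median of 9 bases, their midpoints lay a median of 5 bases apart, and the shared bases held a T in 54 of 55.

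Recurrence by score differed between the lists. Treated sites scored 1 to 49 recurred in 12 of 18 cases on complex I (66.7%, 41.0 to 86.7). On the other mitochondrial messenger RNAs it was 1 of 5, and among nuclear sites 10.97% of 3719. At 50 to 99 the shares were, in the same order, 76.0% of 25, 59.1% of 22 and 48.3% of 443. At 100 to 199 they were 21 of 28 (75.0%, 55.1 to 89.3), 24 of 31 (77.4%) and 55.1% of 263. At 200 or more they were 7 of 12, 35 of 43 (81.4%) and 77.6% of 648. Untreated complex I sites recurred in 6 of 19 cases at 1 to 49 (31.6%, 12.6 to 56.6), in 41.0% at 50 to 99, in 51.2% at 100 to 199 and in 58.3% at 200 or more. A rise over these ranges was also seen elsewhere. On the other mitochondrial messenger RNAs it went from 1 of 5 to 73.6% of 72 untreated sites. Among nuclear untreated sites it went from 1.93% to 49.8%. The part that the density of sites has in these shares was not tested. By gene, all 8 treated mt-Nd2 sites recurred, as did 13 of 17 on mt-Nd1, 15 of 23 on mt-Nd4, 14 of 21 on mt-Nd5, 4 of 6 on mt-Nd4l, 3 of 4 on mt-Nd6 and 2 of 4 on mt-Nd3. Of untreated sites, 15 of 26 on mt-Nd4 and 14 of 40 on mt-Nd5 overlapped a treated one.

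**Figure D2:**
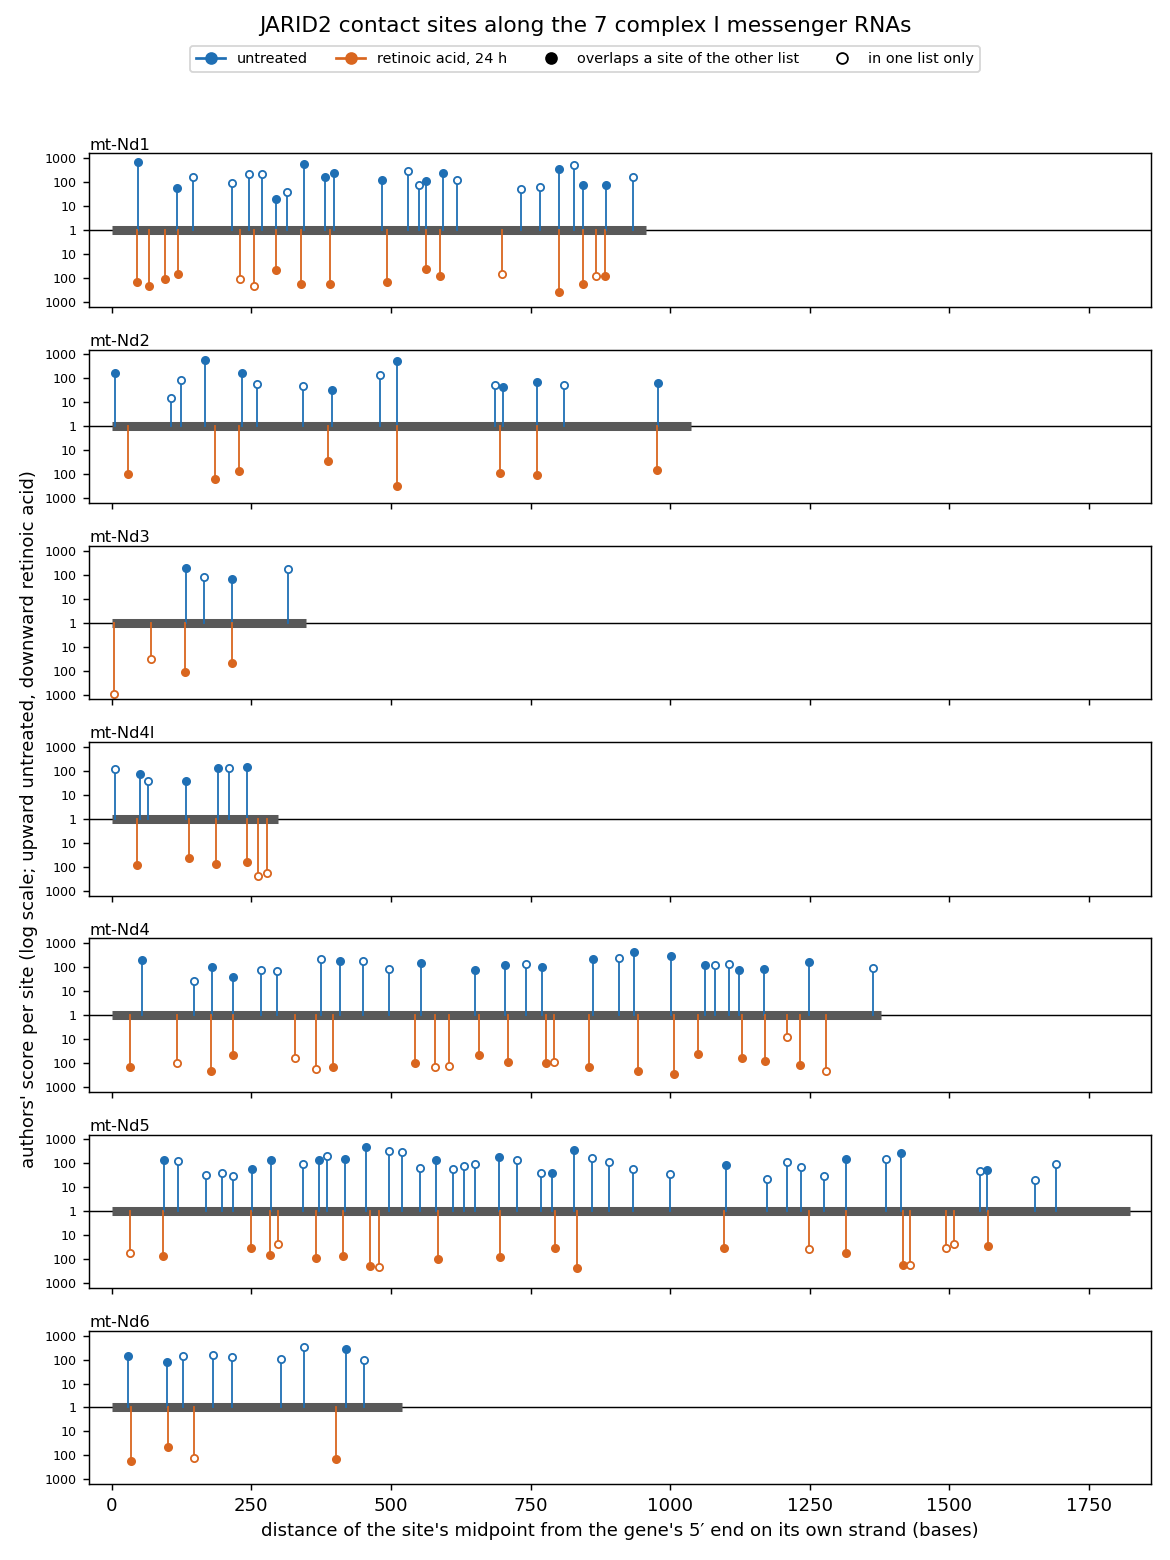
Each stem is 1 site at the distance of its midpoint from the gene's 5′ end (horizontal axis, bases), with its score on a log axis, upward for the untreated list and downward for the retinoic acid list; filled heads overlap a site of the other list. All 8 treated sites of mt-Nd2 have filled heads, and the treated mt-Nd3 site with a score of 954 sits at the start of the gene with an open head.

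At sites paired one to one, scores were mostly lower in the treated list, in 39 of 55 pairs. The same held for 47 of 53 pairs on the other mitochondrial messenger RNAs, 20 of 23 on the ribosomal RNAs and 815 of 1335 over all sites, and the difference between these groups was not tested. The median log2 ratio, treated over untreated, was -0.67 (-0.84 to -0.27), against -0.58 on the other mitochondrial messenger RNAs (53 pairs) and -0.27 over nuclear sites (1179 pairs). That interval describes the spread of pairs within the 2 lists. Sites of 1 transcript are not independent, so it does not measure a difference between the conditions. On mt-Nd5 all 14 pairs were lower treated, with a median of -0.93 and a range of -1.50 to -0.28. Its pair with the highest untreated score, chrM:12189-12205, stood at 461 untreated and 199 treated. On mt-Nd1 the pairs were divided, 3 lower and 6 higher of 9. There the site at chrM:3547-3556 scored 370 untreated and its counterpart 382 treated, while that at chrM:3088-3104 scored 573 and its counterpart 177. Overlaps with several partners were left out of the pairs. On mt-Nd1 these were the untreated site of 685 with treated sites of 149, 209 and 109, and untreated sites of 165 and 253 with a treated site of 172. On mt-Nd4, 11 of 15 pairs were lower, with a median of -0.30, and the pair that both lists start at position 11156 scored 285 and 286. mt-Nd2 had 5 of 8 pairs lower. Its site at chrM:4418-4431 scored 548 untreated and its counterpart 293 treated. The difference between the genes was not tested. The authors' scaling of the score is unknown, so a shift common to all sites cannot be told apart from a change in contact.

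**Figure D3:**
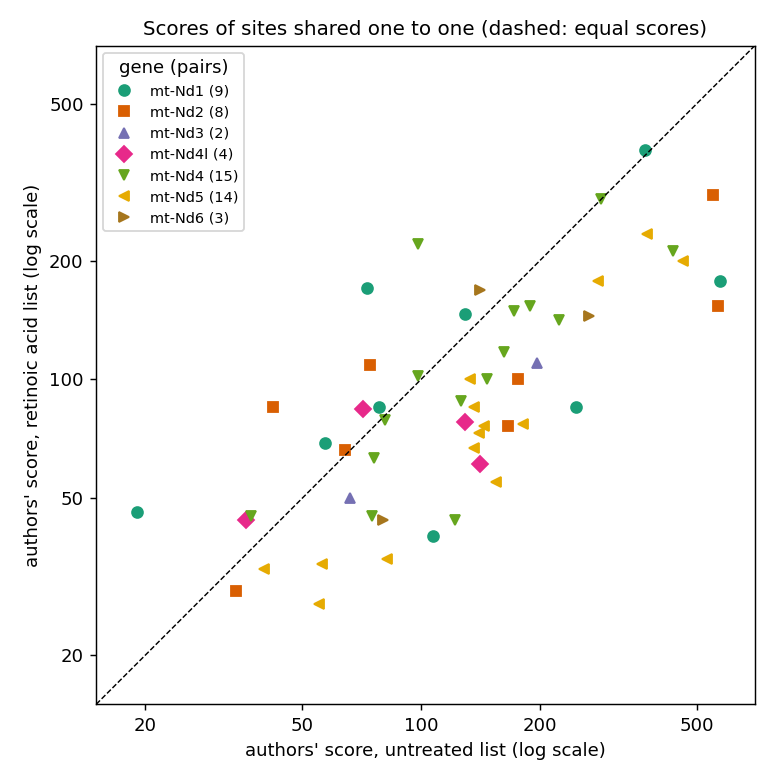
Authors' score of each site paired one to one, untreated (horizontal, log scale) against retinoic acid (vertical, log scale), 55 pairs by gene; the dashed line marks equal scores. All 14 mt-Nd5 pairs lie below the line, while 6 of 9 mt-Nd1 pairs lie above it.

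Along the genes, sites of the 7 genes together lay in all parts, while the genes with few sites were uneven. With each gene divided into 3 parts of equal length, 46 untreated sites lay in the 5′-most part, 45 in the middle and 34 in the 3′-most part, and of the treated sites 33, 23 and 27. mt-Nd5 had 16, 15 and 9 untreated, and the first of these parts held 48.9% of its untreated score and 50.2% of its treated score. Its 3′ end was empty over the last 120 bases untreated and the last 248 treated. Gaps of similar size lay inside the gene, where neighbouring midpoints were up to 141.5 bases apart untreated and 264 treated. mt-Nd2 likewise had 52.4% of its untreated score in the first part, mostly at chrM:4058-4104, against 36.1% treated. mt-Nd3 had no untreated site in its 5′-most part and no treated site in its 3′-most part, and 86.1% of its treated score lay in the 5′-most part. Treated mt-Nd4l had 70.2% of its score in the 3′-most part, and treated mt-Nd6 had 3, 0 and 1 sites with 70.0% of its score in the 5′-most part. On mt-Nd4 the parts were even, with 9, 8 and 9 sites untreated and 7, 8 and 8 treated. Midpoints of neighbouring untreated sites lay a median of 30.5 bases apart on mt-Nd1, 33.0 on mt-Nd5 and 56.3 on mt-Nd2. A site crossed into the transfer RNA gene before the messenger RNA in 3 untreated cases, at the starts of mt-Nd1, mt-Nd2 and mt-Nd4l, and in 1 treated case, at mt-Nd3. That of mt-Nd1 was the longest member site, at 105 bases, and 3 separate treated sites lay within or across it.

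The opposite strand of the complex I genes also held sites, by number chiefly across from mt-Nd4 and mt-Nd5, the longest of the 7. Counted gene by gene, 70 untreated and 33 treated sites lay opposite the 7 genes, 35.9% (29.2 to 43.1) and 28.4% (20.5 to 37.6) of all sites on them. The other messenger RNAs had 18 and 2, 13.5% (8.22 to 20.5) and 1.94% (0.236 to 6.84). mt-Nd5 had 29 and 17 such sites, and mt-Nd4 had 20 and 6. mt-Nd6, whose opposite strand is the plus strand, had 6 and 5. Per kb this was 15.9 and 9.32 on mt-Nd5, 14.5 and 4.35 on mt-Nd4, and 11.6 and 9.63 on mt-Nd6. Of the complex I opposite-strand sites, 24 of 70 untreated and 24 of 33 treated overlapped one of the other list. Over all sites the shares were 6.28% and 27.3%. On the other messenger RNAs it was 0 of 18 and 0 of 2, too few to compare. The median score of opposite-strand sites was 52.5 untreated and 51 treated, below the 120 and 92 on the gene strand. On mt-Nd5 the strands were closer, with an opposite-strand median of 103 untreated and 63 treated against 95.5 and 67 on the gene strand. The minus strand runs on from mt-Nd6 across mt-Nd5, and just past mt-Nd6, opposite the 3′-most part of mt-Nd5, it held 20.2 sites per kb untreated and 15.2 treated, against 17.3 and 7.71 on mt-Nd6 itself. Opposite the middle part it held 11.5 and 4.93 sites per kb, and opposite the 5′-most part 16.4 and 8.22.

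A pair of untreated sites opposite the 5′ part of mt-Nd5 scored above every gene-strand site of the 7 genes, at 4670 and 3784, and neither recurred. Their sequences, on the minus strand, are printed because no other site over these genes, on either strand, scored as high.
Opposite mt-Nd5, untreated, chrM:11871-11881: ctaataatgaa
Opposite mt-Nd5, untreated, chrM:11886-11920: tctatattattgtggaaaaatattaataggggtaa
They made up 73.6% of the untreated opposite-strand score of mt-Nd5. Without them, a setting chosen after the values were seen, that score was 3030 untreated, against 1277 treated for all treated sites, and the highest was 312.

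**Figure D4:**
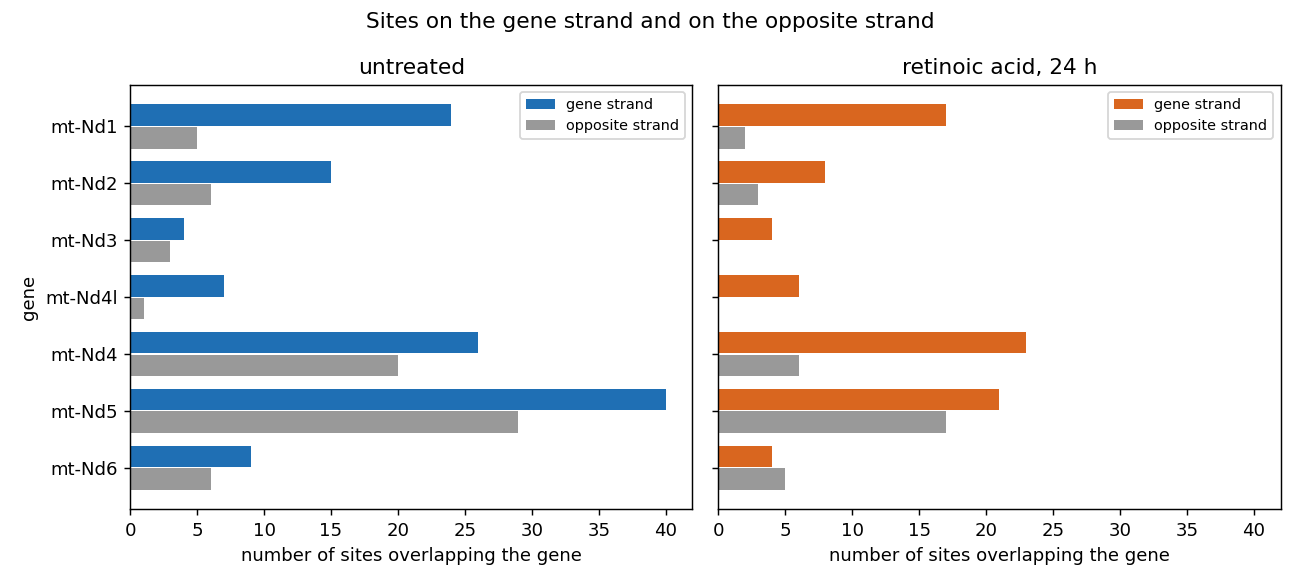
Number of sites overlapping each gene on its own strand (coloured bars) and on the opposite strand (grey bars) in the untreated (left) and retinoic acid (right) lists. mt-Nd5 and mt-Nd4 have the longest grey bars untreated, at 29 and 20 sites.

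Nuclear pseudogenes repeat part of these genes letter for letter, so reads from both places may not be separable. Of all 30-base windows of mt-Nd4l, 98.9% occurred in a transcript of the pseudogene Gm10222, and of mt-Nd3 98.1% occurred in Gm28438. For mt-Nd4 it was 62.8% (Gm28439), for mt-Nd5 17.5%, for mt-Nd2 14.1%, for mt-Nd6 8.37% and for mt-Nd1 0%. The window around the site was repeated for 32 of 125 untreated and 24 of 83 treated sites, and for 0 of the 24 and 17 sites of mt-Nd1. How reads with several matches were placed is not given in these sources, and only annotated transcripts were searched.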

How the data were processed

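JARID2 PAR-CLIP of E14 cells gave 6 libraries in 2 groups of 3, and 1 list of contact sites per group, named for the 3 libraries together. The values are the authors' score per site, a whole number as deposited. The submitters' processing notes name Bowtie and mm9; the site caller, its thresholds and the placement of reads with several matches are not given in these sources, and read depth is unknown. All sites were kept. Gene positions and letters came from GENCODE M21 (GRCm38), whose mitochondrial record was taken to be that of mm9. Nuclear genes of complex I were not analysed here, as no mm9 annotation was used. Sites were assigned by strand and at least 1 shared base. Shares have exact Clopper-Pearson intervals, densities exact Poisson intervals, and medians of log2 ratios intervals from order statistics. For genes with 10 or more sites the lists were compared with Fisher's exact test (two-sided) and Benjamini-Hochberg adjustment at 0.05. That approach was tried on simulated counts drawn independently, with 1 gene raised. Sites of 1 transcript are not independent, so the trial does not cover that feature of the data. Windows of 30 bases were matched exactly to GENCODE transcripts. Alternatives were score minimums of 10, 100 and 1000, midpoint assignment, stricter overlap and another denominator. The text names all 7 members, the 2 other genes of nearest density, and the highest-scored sites; other named sites were chosen after their values were seen. The members and lists were chosen with earlier results of these data known. The scripts ran under Python 3.11.15, with scipy 1.17.1, numpy 2.4.6 and matplotlib 3.10.9.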

Additional observations from a re-analysis of the deposited data

How the results depend on the processing

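No paired analysis was possible because each condition is 1 pooled list with no column per library, and for the same reason no library could be left out. With a score of at least 100, complex I kept 67 untreated and 40 treated sites, and its share of messenger RNA sites was 40.1% and 35.1%. Of these sites, 34.3% untreated and 60.0% treated overlapped a site of the other list that also scored at least 100. That rule is stricter than the one used for recurrence by score, where the overlapping site could have any score. Requiring 50% of both sites lowered recurrence to 24.0% and 36.1%, and requiring identical ends lowered it to 0% in both. Counted against all sites of the list, 11 of 13 genes and 4 of 6 members were called, where 0 were called against mitochondrial sites; the odds ratio of mt-Nd2, mt-Nd5 and mt-Nd6 then turned from below 1 to 2.33, 2.30 and 1.94. The untreated list had 4.37 times as many sites in all and 1.44 times as many mitochondrial sites. With a score of at least 100 that of mt-Nd1 turned from 1.02 to 0.917 and that of mt-Nd5 went from 0.736 to 0.417, with mt-Nd2 and mt-Nd4l too sparse to test. A score of at least 10 and midpoint assignment changed no call. Leaving out the longest untreated mt-Nd1 site, an alternative chosen after the data were seen, gave a treated recurrence of 67.5%. No pair had identical ends or both scores at 1000 or more, so those ratios could not be formed. Depth of the libraries is unknown, and genes with under 10 sites could not be tested.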

Other observations

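The authors' site names carry a group number before a dot, not explained in these sources, and neighbouring sites share one. Untreated member sites fell into 22 such groups and treated ones into 32, although there were fewer treated sites. One untreated group ran over 918 bases of mt-Nd5 with 28 sites, and the treated sites of mt-Nd5 fell into 12 groups against 4 untreated. Some groups crossed gene borders. The untreated group that reached into mt-Nd1 began in mt-Rnr2, the large ribosomal RNA, at position 1130 and ended at 2914 with 24 sites. In both lists 1 group joined mt-Nd4l to mt-Nd4, with 7 sites untreated over 352 bases and 9 treated over 383 bases, and those genes share a messenger RNA.

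Pooled over the 7 genes, site length hardly differed between the lists. The median was 13 bases in each, with a range of 3 to 105 untreated and 2 to 46 treated. Some single genes differed more. On mt-Nd1 the untreated median was 10.5 and the treated median 14, on mt-Nd4l they were 11 and 14, and on mt-Nd4 15 and 13.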
